A study of Mus musculus with 15 samples.

Results

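The 7 sirtuin genes Sirt1 to Sirt7 and 3 related genes (Nampt, Cd38 and Ppargc1a) were followed by RNA-seq in whole brains of 15 mice. They were chosen by name as 10 of the 43629 genes in the deposited count files, by matching Ensembl identifiers to gene symbols, and all 10 were among the 15864 genes with enough counts to be tested. All mice were wildtype C57BL/6J males, an inbred strain, and each mouse gave 1 library. They formed 4 groups: young AL (3 months of age, food always present, n = 4), young EOD (3 months, n = 3), old AL (24 months, n = 4) and old EOD (24 months, n = 4). The ages are those of the labels, and the study's text gives a lower age for the old mice at the start of its analyses. EOD, every-other-day feeding, is called intermittent fasting in the labels, and food was withheld on alternate days from 2 months of age onward, so that a young EOD mouse had been on the diet for a far shorter time than an old one. The comparisons asked whether these genes differed with age, with EOD, or with age to a different extent under EOD.

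Sirtuins are enzymes that remove acetyl and other acyl groups from proteins and consume NAD in each reaction, so that their activity depends on how much NAD a cell holds. Sirt1, Sirt6 and Sirt7 encode mainly nuclear enzymes, Sirt2 a mainly cytoplasmic enzyme known for its abundance in the myelin-forming oligodendrocytes of the brain, and Sirt3, Sirt4 and Sirt5 mitochondrial enzymes. Nampt encodes the rate-limiting enzyme that recycles nicotinamide back into NAD, Cd38 an enzyme that breaks NAD down, and Ppargc1a the transcriptional coactivator PGC-1alpha, which drives mitochondrial biogenesis and is a deacetylation target of Sirt1. RNA levels say nothing of enzyme activity or of NAD itself, and in whole-brain RNA fewer cells of a type and less RNA per cell cannot be told apart.

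Total counts ranged from 5198748 to 13610729 per mouse, with a median of 9886766. Replicate 3 of the young AL group stood apart from the other 14 mice, with 17280 genes detected against 19054 to 20880 and a median correlation of 0.957 with the other mice against 0.98 to 0.987. Values of Cd38, Sirt4 and Sirt5 are given with and without this mouse. The neuron markers Snap25, Syt1, Rbfox3, Map2, Tubb3 and Eno2 together reached 7849 to 9719 CPM (counts per 1000000 counts of the library) in every mouse. In 1 old AL mouse, replicate 4, RNA of the pituitary was also present, with a marker sum of 1032 CPM against a median of 1.02 over all mice. The median of this sum in old AL mice was 9.67 CPM. Young AL mice reached 7.35 CPM and EOD mice at most 1.58 CPM, so that raised sums were not confined to replicate 4.

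Of the 10 genes, 1 passed the test with age averaged over diets, beside 365 or 2.3% of all 15864 tested genes. Cd38 RNA was 0.66-fold as high in old as in young brains over both diets, while the 7 sirtuins, Nampt and Ppargc1a did not pass the test in any comparison. No member passed the test for EOD in young mice, in old mice or over both ages. Of all 15864 tested genes, 0 passed in these comparisons.

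The 10 genes were expressed at widely different levels, which are given in CPM per kilobase of annotated exon to allow for gene length. This length is that of the annotated gene, not of the transcripts present, and the order depends on it. In plain CPM, Sirt2 (3568 bases of exon) averaged 118 and Sirt3 (1570 bases) 54.25. Sirt3 (34.6 ± 1.87, SD, n = 15) and Sirt2 (33.1 ± 2.21) stood highest, and Sirt3 was above Sirt2 in 10 of 15 mice, so that their order was not separated by the spread between mice. Nampt followed with 20.6 ± 1.02 and Ppargc1a with 12.6 ± 1.22. Sirt5 lay at 6.3 ± 1.08. The ranges of Sirt2, Nampt, Ppargc1a and Sirt5 did not overlap from one gene to the next.

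Among the lower genes, Sirt1 had 3.73 ± 0.47 CPM per kilobase (SD, n = 15), Cd38 3.28 ± 0.97, Sirt7 2.75 ± 0.32, Sirt4 2.21 ± 0.56 and Sirt6 2.02 ± 0.55. Neighbours in this lower part overlapped, as did Sirt5 and Sirt1, although Sirt5 was above Sirt1 in 14 of 15 mice. Relative to all tested genes, Sirt3 was higher than 90.3% and Sirt2 higher than 89.8%. The order of the 10 means stayed the same when the third young AL mouse was left out. It was also the same with CPM from the total counts, but this changes all genes of a mouse by the same factor and could hardly alter the order. The exon length was not varied.

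**Figure D1:**
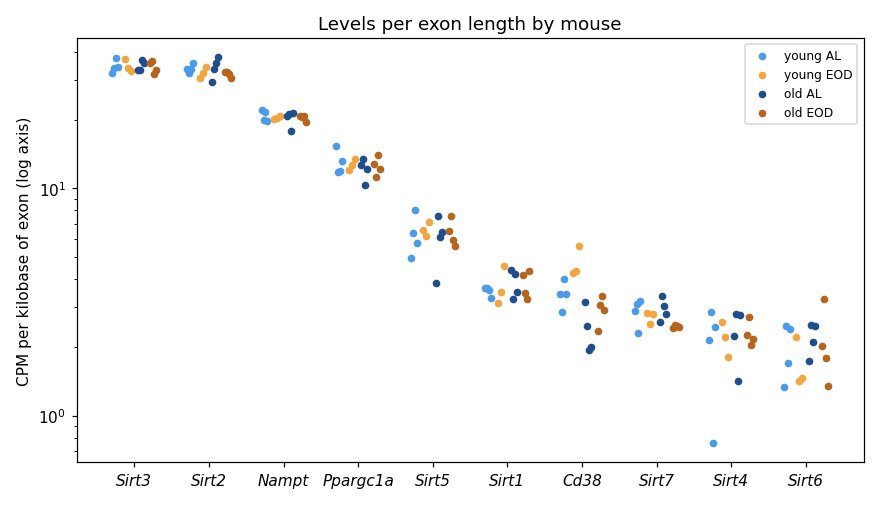
Level of each gene in each of the 15 mice, in CPM per kilobase of exon on a log axis, with genes ordered by their mean and points coloured by group. Sirt3 (mean 34.6) and Sirt2 (33.1) lie together at the top, and the 5 lowest genes (Sirt1, Cd38, Sirt7, Sirt4 and Sirt6) overlap their neighbours. The lowest point is Sirt4 in the third young AL mouse.

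Within the sirtuin family, Sirt2 made up 39.1% ± 1.62 and Sirt3 40.8% ± 1.6 of the summed level per kilobase of the 7 genes (SD, n = 15). Sirt5 contributed 7.41% ± 1.09 and Sirt1, the best studied member, 4.42% ± 0.66. Sirt7, Sirt4 and Sirt6 contributed 3.25%, 2.62% and 2.37% on average. The share of Sirt2 was 39.7% ± 1.82 in young AL, 38.6% ± 2.22 in young EOD, 39.5% ± 1.45 in old AL and 38.4% ± 1.36 in old EOD mice, and the ranges of the 4 groups overlapped.

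Cd38 encodes a membrane enzyme that hydrolyses NAD and also makes the calcium-mobilizing messenger cyclic ADP-ribose. The gene (ENSMUSG00000029084) lies on chromosome 5 at 43868809 to 43912375 of GRCm38, plus strand, with 3014 bases of annotated exon, and in the GENCODE annotation 1 non-coding gene, Gm16014, overlaps it on the same strand. The 4 young AL mice had 10.4, 8.61, 12 and 10.4 CPM, and the 3 young EOD mice 12.7, 13.1 and 16.8 CPM. The 4 old AL mice had 9.57, 7.48, 5.86 and 6.05 CPM, and the 4 old EOD mice 7.12, 9.22, 10.1 and 8.75 CPM. All 3 young EOD mice were thus above the other 12 mice, and the 4 lowest values were those of 3 old AL mice and 1 old EOD mouse. These levels rest on raw counts of 31 to 159 per mouse.

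Averaged over diets, Cd38 was lower in old brains with a log2 fold change of -0.60 (SE 0.13, 95% confidence interval -0.87 to -0.34, edgeR quasi-likelihood test, FDR = 0.0144, where FDR is the p adjusted over all tested genes and 0.1 the threshold). The mean was 12 ± 2.64 CPM in 7 young mice and 8.02 ± 1.62 CPM in 8 old mice, and the ranges of the young and the old mice overlapped between 8.61 and 10.1 CPM. Of all 15864 genes tested, 365 or 2.3% passed the same threshold, and 108 or 0.681% passed it with a lower level in old mice. Of the 10 members, 1 passed. The call held in each of the 24 alternative analyses, with log2 fold changes from -0.69 to -0.53 and FDR from 0.00162 to 0.0646.

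Within each diet the same gene was lower in old mice, but neither difference passed on its own. In AL mice the log2 fold change was -0.51 (SE 0.18, FDR = 0.292, edgeR), from 10.3 ± 1.39 to 7.24 ± 1.71 CPM, and the 2 groups overlapped. In EOD mice it was -0.69 (SE 0.18, FDR = 0.236, edgeR), from 14.2 ± 2.27 to 8.8 ± 1.26 CPM, and each old EOD mouse was below each young EOD mouse. Over all genes 1.09% passed the test with age in AL mice and 0.29% in EOD mice, and none of the 10 members did in either diet. With the limma voom fit the EOD difference passed (FDR = 0.027). The 2 age differences were not shown to differ: the interaction was -0.18 (SE 0.26, 95% confidence interval -0.71 to 0.35, FDR = 1, edgeR).

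The age difference in Cd38 did not rest on the mice that stood apart. Without the third young AL mouse the averaged log2 fold change was -0.56 (SE 0.12, FDR = 0.0209), and without the fourth old AL mouse, which held the most pituitary RNA, it was -0.55 (SE 0.13, FDR = 0.0392). The file headers name 3 sequencing lanes, and lane 3 held no young EOD mouse. Within the lanes, old minus young log2 CPM of Cd38 was -0.33 in lane 1 (2 old, 3 young mice), -0.88 in lane 2 (3 and 3) and -0.34 in lane 3 (3 and 1), where diets are mixed in turn. With lane as a covariate the log2 fold change was -0.60 (FDR = 0.0409).

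Mean levels of Cd38 under EOD were above those under AL at both ages without passing the test. In young mice the log2 fold change was 0.45 (SE 0.18, FDR = 0.996, edgeR), and the 3 young EOD mice did not overlap with the 4 young AL mice. In old mice it was 0.28 (SE 0.18, FDR = 1), with overlapping groups. Averaged over ages it was 0.37 (SE 0.13, 95% confidence interval 0.10 to 0.63, FDR = 0.983). Ranked by p, Cd38 stood at place 124 of 15864 genes for the averaged diet difference. Within the lanes, EOD minus AL log2 CPM was 0.006 in lane 1, 0.63 in lane 2 and 0.24 in lane 3. Ages are mixed in these values. Lane 1 set 1 young and 1 old EOD mice against 2 young and 1 old AL mice. There the young EOD mouse (12.7 CPM) was above both young AL mice, and the old EOD mouse (7.12 CPM) was below the old AL mouse (9.57 CPM). Lane 2 set 2 young and 1 old EOD mice against 1 young and 2 old AL mice. Lane 3 set 2 old EOD mice against 1 young and 1 old AL mouse. Age and diet cannot be told apart in the lane values.

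**Figure D2:**
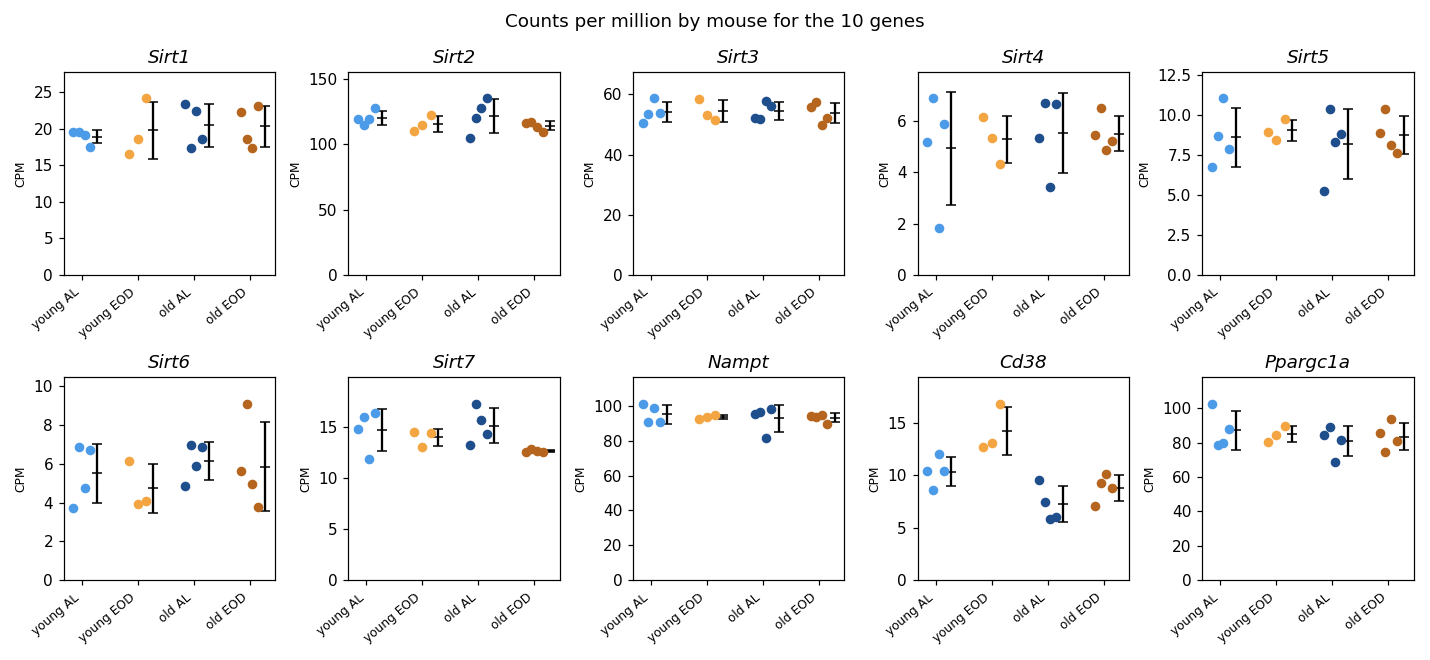
CPM of each gene in each mouse by group, 1 point per mouse, with the group mean and SD beside the points and each vertical axis starting at 0. Cd38 lies at 12.7 to 16.8 CPM in young EOD mice and at 5.86 to 10.1 CPM in the 8 old mice, and Sirt7 in the 4 old EOD mice lies between 12.6 and 12.9 CPM.

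Markers of several cell types also differed with age, and their part in the Cd38 difference was not tested. The summed level of 5 microglia markers was 193 to 208 CPM in young and 210.0 to 242 CPM in old mice, 2 of the 5 (Cx3cr1, Csf1r) rose at FDR under 0.1 averaged over diets, and its Spearman rho with Cd38 over 15 mice was -0.69. The summed level of 4 markers of oligodendrocyte precursors was 135 to 162 CPM in young and 120 to 138 CPM in old mice. The rho of this sum with Cd38 was 0.79. Only 1 of the 4, Gpr17, fell at this threshold (log2 fold change -0.56). Without passing the test, Pdgfra (-0.02) and Cspg4 (-0.17) were lower and C1ql1 (0.22) was higher. Of 7 astrocyte markers, 2 rose (Gfap, S100b), while 3 in all were higher and 4 lower in old mice, with a median log2 fold change of -0.02. Their sums were 4340 to 5120 CPM in young and 4446 to 5228 CPM in old mice. Of 10 oligodendrocyte markers, 2 rose (Mbp, Ermn), but the list was split, with 7 higher and 3 lower in old mice. Its median log2 fold change was 0.03, and Mog (-0.19) and Opalin (-0.38) were lower without passing the test. Of 6 neuron markers none passed. The rho with Cd38 was 0.25 for the astrocyte sum, -0.39 for the oligodendrocyte sum and 0.31 for the neuron sum. For the remaining marker sums it lay between -0.43 (choroid plexus) and -0.007 (parvalbumin interneurons). The correlations are given as descriptions, over mice that share age and diet groups.

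The genes whose pattern was most like that of Cd38 over 14 mice (without young AL replicate 3) were Glra2 (rho = 0.97, Pearson's r = 0.96), an X-linked gene for a subunit of the glycine receptor, and Atcayos (rho = 0.93). For comparison, the best partner of a tested gene had a median rho of 0.895 over 14124 genes, with quartiles of 0.864 and 0.921. Glra2 had 36.8 ± 1.61 CPM in young AL, 41.2 ± 2.95 in young EOD, 28.9 ± 5.45 in old AL and 33 ± 2.96 in old EOD mice. Over both diets it was lower in old mice (log2 fold change -0.34, SE 0.08, FDR = 0.0422, edgeR). Since Glra2 was picked for its likeness to Cd38 in these same mice, this is not a separate result. Atcayos, picked in the same way, did not pass (-0.11, SE 0.09, FDR = 0.673, edgeR). The best partners of the other 9 members had rho of 0.846 to 0.912, below the upper quartile for all genes. The 2 nearest genes were Zrsr1 and Wnt3 for Sirt1, Dnajc30 and Gigyf1 for Sirt2, Myg1 and Rhot2 for Sirt3, Rps2 and Vcpkmt for Sirt4, and Tubgcp2 and Cpxm1 for Sirt5. They were Matk and Ddn for Sirt6, Mfsd13a and Nptx2 for Sirt7, Tmed10 and Pdgfra for Nampt, and Tll1 and Slc4a7 for Ppargc1a.

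Bst1, which encodes the other ADP-ribosyl cyclase of the Cd38 family, lies 25562 bases from Cd38 on the same chromosome and was too rare to pass the filter. The young mice held 0 to 4 Bst1 counts each and the old mice 4 to 8, or 0 to 0.53 and 0.34 to 1.13 CPM, which is the opposite order to Cd38. These counts are near the limit of detection.

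Nampt, on the synthetic side, had the smallest relative spread of the 10 genes over all mice, with a coefficient of variation of 4.96%, against 29.5% for Cd38. The gene lies on chromosome 12 at 32820335 to 32853369 of GRCm38, plus strand. Its group means were 95.2 ± 5.44 CPM in young AL (n = 4), 93.4 ± 1.04 in young EOD (n = 3), 92.7 ± 7.66 in old AL (n = 4) and 93 ± 2.57 in old EOD mice (n = 4). All 15 mice lay between 81.3 and 101 CPM, and the groups overlapped in each comparison. With age the averaged log2 fold change was -0.02 (95% confidence interval -0.13 to 0.09, FDR = 0.926, edgeR) and with diet -0.01 (95% confidence interval -0.12 to 0.10, FDR = 0.996), so that averaged changes beyond 0.91-fold or 1.07-fold lay outside both intervals. As a description, the ratio of Nampt to Cd38 CPM was 9.31 ± 1.05 in young AL, 6.67 ± 0.92 in young EOD, 13.2 ± 2.59 in old AL and 10.7 ± 1.72 in old EOD mice.

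Ppargc1a lies on chromosome 5 at 51454249 to 51567725, minus strand, and its coefficient of variation over all mice was 9.68%. The group means were 87.1 ± 11.2 CPM in young AL, 84.8 ± 4.59 in young EOD, 80.7 ± 8.8 in old AL and 83.5 ± 8.02 in old EOD mice, and the groups overlapped in each comparison. The averaged log2 fold change was -0.06 with age (95% confidence interval -0.21 to 0.09, FDR = 0.801, edgeR) and 0.005 with diet (95% confidence interval -0.15 to 0.15, FDR = 0.998).

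Of the nuclear sirtuins, Sirt1 lies on chromosome 10 at 63319005 to 63381704, minus strand. It had 18.9 ± 0.93 CPM in young AL, 19.8 ± 3.92 in young EOD, 20.5 ± 2.93 in old AL and 20.4 ± 2.81 in old EOD mice. Its averaged log2 fold change was 0.08 with age (95% confidence interval -0.13 to 0.28) and 0.03 with diet (-0.18 to 0.24). Sirt6, which acts in DNA repair and telomeric chromatin (chromosome 10, 81621785 to 81627797, minus strand), was measured with less precision, at 23 to 82 counts per mouse. Its group means lay between 4.73 and 6.14 CPM, and its averaged age difference was 0.21 (95% confidence interval -0.19 to 0.62, FDR = 0.725, edgeR).

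Sirt7, a sirtuin of the nucleolus, had the smallest p of the 10 genes for diet in old mice. The 4 old AL mice had 13.3, 17.3, 15.7 and 14.4 CPM and the 4 old EOD mice 12.6, 12.9, 12.7 and 12.6 CPM, so that each old EOD mouse was below each old AL mouse. Each old EOD mouse was also below the 3 young EOD mice, which had 14.6, 13.1 and 14.5 CPM. The young AL mice had 14.8, 16, 11.9 and 16.4 CPM and reached below the old EOD mice through the third mouse. The log2 fold change with diet in old mice was -0.25 (SE 0.13, 95% confidence interval -0.52 to 0.01, FDR = 1, edgeR). With age in EOD mice it was -0.15 (SE 0.14, FDR = 0.991). Sirt7 (chromosome 11, 120618372 to 120625240, minus strand) shares its strand with the overlapping genes Mafg and Mir6936 in the GENCODE annotation of GRCm38, so that reads in the overlap could have been lost or assigned to another gene. The same holds for Nampt and Cd38, with 1 overlapping gene each on their strand, and for Ppargc1a, with 3. These are overlaps of whole genes in GENCODE, not of the Ensembl exons used to assign the reads.

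Groups without overlap were not rare among all genes. In old mice 2.59% of tested genes separated EOD from AL in either direction, and 1 of the 10 members, Sirt7, did so. In young mice the share was 4.45%, and 1 member, Cd38, did so. Between old and young EOD mice the share was 9.04%, with 2 members, Cd38 and Sirt7. Between old and young AL mice it was 4.56%, with 0 members. Counts of 1 or 2 in 10 members are not read as a result about the members.

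Sirt2, the cytoplasmic sirtuin, lies on chromosome 7 at 28766735 to 28788665, plus strand. It had 120 ± 5.51 CPM in young AL, 116 ± 6.23 in young EOD, 122 ± 13.1 in old AL and 114 ± 3.43 in old EOD mice. Its averaged age difference was 0.001 on the log2 scale (95% confidence interval -0.12 to 0.12) and its averaged diet difference -0.08 (-0.19 to 0.04, FDR = 0.983, edgeR). The highest value, 135 CPM, was that of the fourth old AL mouse, which held the most pituitary RNA. The summed oligodendrocyte markers were 6117 to 7442 CPM in young and 6882 to 8065 CPM in old mice, and their Spearman rho with Sirt2 over 15 mice was -0.08. The largest rho of a marker sum with Sirt2 was that of the pituitary markers, 0.74, although the median of that sum was only 1.02 CPM. The part of pituitary RNA in the Sirt2 values was not tested.

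Of the mitochondrial sirtuins, Sirt3, the main mitochondrial deacetylase, lies on chromosome 7 at 140863670 to 140882309, minus strand. It had a coefficient of variation of 5.41% over all mice, with 54.1 ± 3.4, 54.5 ± 3.59, 54.6 ± 2.95 and 53.9 ± 3.32 CPM in the AL and EOD groups of young mice and then of old mice. Its averaged differences were -0.005 with age (95% confidence interval -0.13 to 0.12) and -0.004 with diet (-0.13 to 0.12). Sirt5, which removes succinyl and malonyl groups (chromosome 13, 43370710 to 43395202, plus strand), had 8.59 ± 1.81, 9.03 ± 0.66, 8.18 ± 2.16 and 8.73 ± 1.2 CPM in the same order of groups, with averaged differences of -0.07 with age (-0.36 to 0.23) and 0.08 with diet (-0.22 to 0.37). The third young AL mouse had the highest Sirt5 value, 11 CPM, and without it the young AL mean was 7.77 ± 0.98 CPM (n = 3) and the averaged differences were 0.01 with age (SE 0.13) and 0.15 with diet (SE 0.13). For Sirt3, without this mouse, they were 0.02 with age and 0.02 with diet, so that for both genes the sign of the age difference lay within the error.

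Sirt4, whose product restrains glutamate dehydrogenase (chromosome 5, 115478010 to 115484725, minus strand), varied most between mice of the young AL group. The third mouse had 1.81 CPM, against 5.18, 6.87 and 5.86 CPM in the other young AL mice, and the remaining groups averaged 5.28 ± 0.91 (young EOD), 5.52 ± 1.54 (old AL) and 5.5 ± 0.7 CPM (old EOD). The age difference in AL mice was 0.21 (SE 0.29) with this mouse and -0.08 (SE 0.21) without it, and the averaged age difference 0.13 (SE 0.22) and -0.01 (SE 0.15). Neither passed the test.

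**Figure D3:**
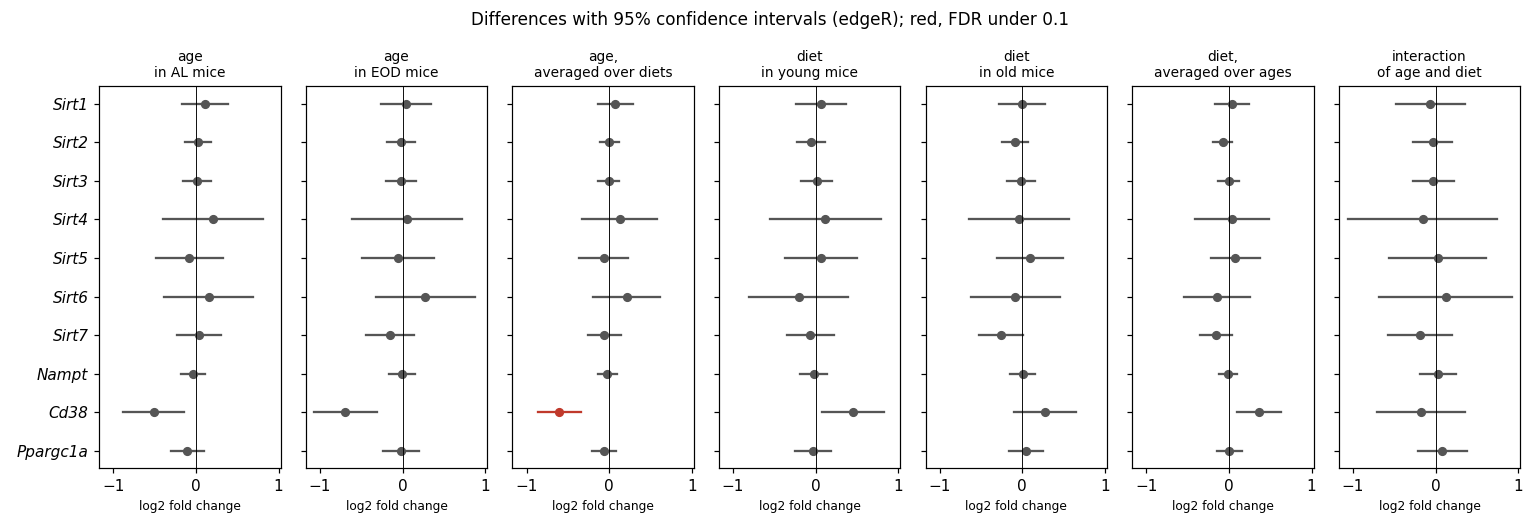
Log2 fold change (horizontal axis) of each gene in the 7 comparisons, with 95% confidence intervals from the edgeR fit of all 15 mice and red for FDR under 0.1. Cd38 is red for age averaged over diets (-0.60), its intervals lie to the left of 0 for age in both diets, and the widest intervals are those of Sirt4 and Sirt6.

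Seen over the comparisons, the members moved little as a group. The median log2 fold change of the 10 genes was -0.01 with age averaged over diets, beside -0.005 for all tested genes, and 0.0001 with diet averaged over ages, beside 0.0004. The median size of the age difference, regardless of direction, was 0.06 for the 10 genes and 0.09 for all tested genes. For diet in young mice, diet in old mice, diet averaged over ages and the interaction, 0 of the 10 members and 0% of all tested genes passed in edgeR. At an unadjusted p under 0.05 these 4 comparisons held 1, 0, 1 and 0 members (Cd38 both times), and 657, 409, 715 and 362 of all tested genes. DESeq2 and limma voom called none of the members in these 4 comparisons either. Of the 70 differences (10 genes in 7 comparisons), 13 were larger than their own standard error.

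Over 14 mice (without young AL replicate 3), the 45 pairs of members had Spearman rho from -0.80 (Sirt3 and Ppargc1a) to 0.75 (Sirt4 and Sirt6), with a median of 0.024, given as a description.

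Around the members, 93 further genes of the pathway were followed in 5 lists, of which 81 could be tested. They make NAD, branch from it, consume it, partner with Ppargc1a, or regulate or are modified by sirtuins. FDR under 0.1 in edgeR was reached by 2.3% of all tested genes for age over both diets, 1.09% for age under AL and 0.29% for age under EOD. For diet at either age, diet over both ages and the interaction, the share was 0%. None of the 81 pathway genes passed this threshold in any of the 7 comparisons, which is not read as a result about the lists. At an unadjusted p under 0.05 there were 9 genes with age in AL mice (7 higher and 2 lower in old mice), 0 with age in EOD mice, 7 with age averaged over diets (4 higher, 3 lower), 1 with diet in young mice, 3 with diet in old mice, 4 with diet averaged over ages and 2 for the interaction. Over all tested genes the shares at this p were 9.52%, 5.74%, 11.7%, 4.14%, 2.58%, 4.51% and 2.28% in the same order of comparisons, so the counts of pathway genes are not read as a result about the lists. With age in AL mice DESeq2 called Parp3, and with age averaged over diets DESeq2 called Bst1 and limma voom Parp12; neither tool called any in the other 5 comparisons.

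**Figure D4:**
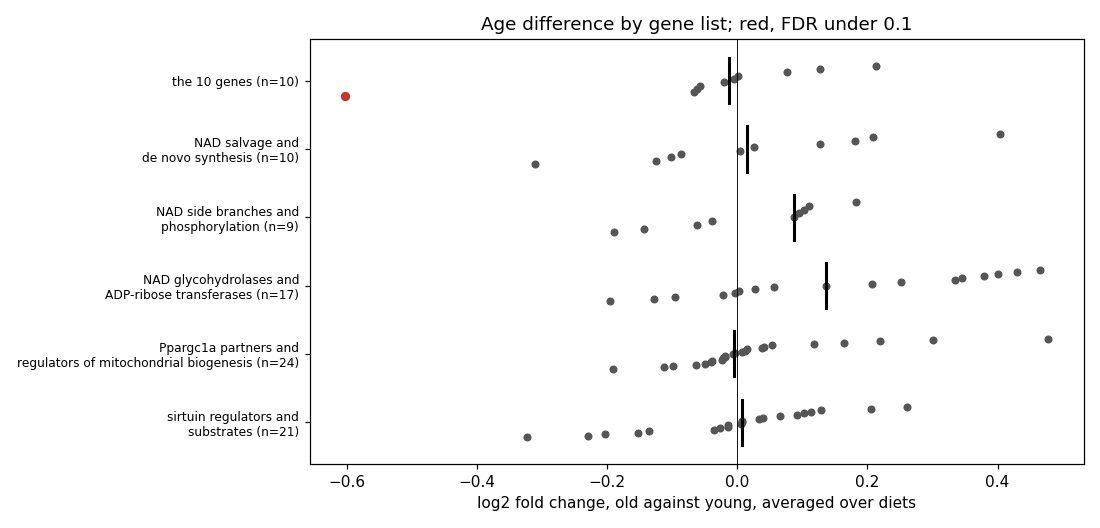
Log2 fold change of old against young mice, averaged over diets, for the 10 genes and the tested genes of 5 pathway lists, 1 point per gene, with black bars for list medians and red for FDR under 0.1. Cd38 at -0.60 is the one red point, and the medians of the lists lie between -0.005 and 0.14.

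NAD-consuming enzymes other than sirtuins (Sarm1, the PARP family and relatives, with Bst1 not among the tested genes) formed the list with the highest median age difference, 0.14 over 17 tested genes, of which 12 were higher and 5 lower in old mice, beside a median of -0.005 over all tested genes. Parp12, a mono-ADP-ribosyltransferase induced by interferon, had the smallest p of the list. It had 9.04 ± 1.5 CPM in young AL, 11.3 ± 1.51 in young EOD, 12.8 ± 0.61 in old AL and 13 ± 1.9 in old EOD mice, a log2 fold change of 0.35 (SE 0.11, FDR = 0.158, edgeR). Microglia markers were higher in old mice as well, as given above for Cd38, and their part in the values of Parp12 was not tested.

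In the list of NAD synthesis, 10 of 18 genes could be tested, 6 were higher and 4 lower in old mice, and the median was 0.02. Naprt, which makes NAD from nicotinic acid, had the smallest p, with 2.43 ± 0.9 CPM in young AL, 3.4 ± 0.59 in young EOD, 4.37 ± 1.12 in old AL and 3.46 ± 0.75 in old EOD mice (log2 fold change 0.40, SE 0.21, FDR = 0.457, edgeR). Of the kynurenine route, Tdo2, Ido1 and Ido2 were tested and did not pass, while Kmo, Haao and Qprt were too rare to be tested. In the list of side branches and phosphorylation, 9 genes were tested, 5 were higher and 4 lower, and Nnt had the smallest p (log2 fold change 0.18, SE 0.09, FDR = 0.435). Nnt encodes a mitochondrial transhydrogenase that couples NAD and NADP, but C57BL/6J mice are known to carry a deletion in this gene that leaves no functional enzyme.

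Of 24 partners of Ppargc1a and regulators of mitochondrial biogenesis, 11 were higher and 13 lower in old mice, with a median of -0.005. Prkaa2, a catalytic subunit of AMP-activated protein kinase, had the smallest p, with 74.4 ± 4.97 CPM in 7 young and 69.1 ± 6.16 CPM in 8 old mice (-0.11, SE 0.06, FDR = 0.48, edgeR). Of 21 tested regulators and substrates of sirtuins, 12 were higher and 9 lower, with a median of 0.007. Acss1, a mitochondrial acetyl-CoA synthetase deacetylated by Sirt3, had the smallest p, with 32 ± 2.93 CPM in young and 27.5 ± 3.81 CPM in old mice (-0.23, SE 0.09, FDR = 0.265).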

How the data were processed

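RNA from whole brain was sequenced as 50-base single-end reads, per the study's methods. The authors aligned the reads to GRCm38 with STAR, assigned them to genes (Ensembl release 79) by featureCounts 1.5.0-p1 (minimum mapping quality 5, primary alignments, reverse-stranded) and deposited raw counts per gene, without normalization. Total counts per mouse, 5198748 to 13610729, limit the precision of rare genes. Samples were grouped by the labels.

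Everything else was computed here in R 4.3.3. Differences came from edgeR 4.0.16 (filterByExpr, TMM, quasi-likelihood test, 4 group means of 15 mice, Benjamini-Hochberg over 15864 genes, FDR under 0.1). The interaction is the age difference in EOD minus that in AL mice. CPM used TMM-scaled totals, and log2 CPM a prior count of 2. Standard errors were derived from each estimate and its F statistic. The fit was tested on simulated data.

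Members and gene lists were chosen with earlier results of these data known. Named were all 10 members, pathway genes past FDR 0.1, the gene with the smallest p for age per list, and each member's 2 nearest genes in pattern. Bst1, Sirt7's neighbours, and the genes other tools called were named after their values were seen. Alternatives were RLE size factors, other count filters, DESeq2 1.42.0, limma 3.58.1 voom with quality weights, FDR under 0.05, a replicate block, lane, 2 groups alone or an additive model, and leaving out each mouse. Within-lane values were added after seeing the data. Of the listed cell type markers, 1 is not reported here and was left out of its list's sums and counts.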

Additional observations from a re-analysis of the deposited data

Results flagged for a closer look

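Among 45 groups of 4 mice checked for a mouse set apart from the others (the 10 members and the 5 pathway genes with the smallest p), 2 were flagged, near the rate of about 1 in 20 that chance gives. Prkaa2 was at 54.7 CPM in the third old AL mouse, against 68.5 to 69.6 CPM in the other old AL mice. Acss1 was at 35.8 CPM in the second old EOD mouse, against 25.6 to 26.3 CPM in the other old EOD mice. No member of the sirtuin and NAD group was flagged.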

How the results depend on the processing

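Cd38 with age averaged over diets passed the threshold in all 24 alternatives, and none of the 10 members reversed a called direction. With every gene of at least 1 count, 2 pathway genes passed with age in AL mice (Parp3, Nfe2l2) and 1 with age averaged over diets (Bst1). With DESeq2 it was 1 (Parp3) and 1 (Bst1). With limma voom, 1 member passed with age in EOD mice (Cd38) and 1 pathway gene with age averaged over diets (Parp12). Over all genes, 46 passed with age in EOD mice in edgeR, 70 in DESeq2 and 125 in limma voom. The cause was not tested. In the main fit 1.09% of all tested genes passed with age in AL mice and 2.3% averaged over diets. The shares of all genes in these 2 comparisons under the other settings are not given here. Counts of pathway genes that passed are therefore not read as a result about the lists. Leaving out 1 mouse at a time gave 0 to 1 pathway genes with age in AL mice (Parp3, Parp12 or Ppard, without young AL replicate 1, 3 or 4) and 0 to 1 averaged over diets (Parp3, Parp12 or Acss1, without young AL replicate 1 or 3, or old EOD replicate 2), and the number of members called was 1 for age averaged over diets and 0 in the other 6 comparisons throughout.

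Same-numbered mice did not vary together (2 of 21 correlations over 0.1, range -0.11 to 0.11), so the replicate numbers do not pair the samples. With the number as a replicate block, Cd38 remained past the threshold (log2 fold change -0.58, FDR = 0.0405), with 1 member called for age averaged over diets and 0 in the other comparisons. Of 1670 alternative values for single genes, 1666 stayed on the same side of the threshold and, where the main difference was within its standard error, moved by less than that standard error. Among them and the 3 that moved further, 146 values of 46 differences had the opposite sign to the main value, all for differences within their standard error. The 3 that moved further were Sirt1 without young EOD replicate 3, with age in EOD mice to 0.22 and with diet in young mice to -0.11, and Sirt6 without old EOD replicate 2, with diet in old mice to -0.36, and 1 value came to pass the threshold. Sirt4 and Sirt6 rest on 18 to 82 counts per mouse, and their 95% confidence intervals for age averaged over diets reach 0.58 and 0.62.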
